A study of Rattus norvegicus with 2 samples.

Results

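The 8 genes described here carry the main steps of cellular iron handling, and all 8 were found by symbol among the 25399 genes of the count tables. They are Fth1 and Ftl1 (the heavy and light chains of ferritin), Tf (transferrin), Tfrc (transferrin receptor), Slc11a2 (the divalent metal transporter DMT1), Slc40a1 (ferroportin), Cp (ceruloplasmin) and Hmox1 (haem oxygenase 1). The genes were chosen by name after earlier results of these libraries were known, so their levels are a description and carry no test. The data are single-cell RNA counts from mixed glial cultures of rat optic nerve, with 1 library of WT rats and 1 library of Nuc1 rats. Nuc1 is a spontaneous rat mutant with an insertion in Cryba1, the gene of βA3/A1-crystallin, and the labels give both libraries as postnatal day 7, while the culture methods of the study name younger pups, so the age is given here as labelled. The labels name no further allele and no agent for either group. The number of animals behind each library is not given in the sources used here.

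Because each genotype has a single library, genotype, sex of the animals, culture, dissociation and droplet run cannot be told apart, and there is no replicate error. Every interval below is an exact 95% interval that covers counting error only. The WT library held 34517542 UMIs (unique molecular identifiers, 1 per captured transcript) in 2107 barcodes and the Nuc1 library 35794685 in 1929 barcodes, and 2 barcodes occurred in both. After filtering, 1963 WT and 1782 Nuc1 cells were kept, with medians of 14050 and 16578 UMIs. Cryba1 itself was at 0 UMIs in all barcodes of either library, so its level could not serve as a check of the labels. The unit of every level is CPM, that is 1e+06 times the share of a cell group's UMIs in a library that came from the gene.

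Iron that enters a cell on transferrin is taken up with the transferrin receptor, reduced, and moved out of the endosome by Slc11a2. Iron that is not used is stored in the ferritin shell, in which the heavy chain oxidises iron and the light chain helps to build the mineral core. Ferroportin is the known iron exporter of mammalian cells, and ceruloplasmin, a copper oxidase that astrocytes can anchor at their surface, oxidises the exported iron so that transferrin can bind it. Haem oxygenase 1 releases iron from haem and is a classical stress-response gene. In the central nervous system, oligodendrocytes and the choroid plexus are the textbook sources of transferrin, and microglia and oligodendrocytes are rich in ferritin.

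The 3745 cells fell into 10 clusters when they were grouped without the 8 genes and without a list of other iron genes, so that the iron genes did not shape the groups. A cluster of 108 WT and 353 Nuc1 cells was called astrocyte-like, since Gfap, Fabp7, Aqp4 and 1 further astrocyte marker stood among its 10 leading genes. The summed astrocyte markers reached 43910 CPM there in WT and 55498 CPM in Nuc1, against 2443 and 2292 CPM in the collagen-rich cells. A motile-cilia-like cluster held 15 WT and 103 Nuc1 cells, an oligodendrocyte-lineage-like cluster 52 and 10, and a macrophage-like cluster 23 and 21. A further cluster of 22 WT and 30 Nuc1 cells was led by Ttr, Gldn and Fbln2 and is named here by those genes. The other 5 clusters were rich in collagen transcripts, with 1743 WT and 1265 Nuc1 cells. Of the listed fibroblast markers, Mfap5 and Lum stood among the 10 leading genes of cluster 1 and Dcn among those of cluster 2. None of the 5 clusters had 3 such markers there. The 5 clusters are called collagen-rich and numbered: cluster 0 (Igfbp5, Ccn3), cluster 1 (Actg2, Penk), cluster 2 (Shisa3, Cldn11), cluster 4 (Inmt, Cyp26b1) and the dividing cluster 5 (Top2a, Mki67).

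Some of these groups differed between libraries in ways that touch the values below. Cluster 4 made up 3.04% of the collagen-rich cells in WT and 29.0% in Nuc1. The macrophage-like cells had a median of 8493 UMIs in WT and 1716 in Nuc1, and their median mitochondrial share was 8.02% and 0.254%. A UMI of the Y-linked genes Eif2s3y or Kdm5d was seen in 0 of 108 astrocyte-like cells in WT and in 93 of 353 in Nuc1. The summed dissociation-response genes (Fos, Egr1 and 10 others) were at 4322 CPM in WT and 2006 CPM in Nuc1 astrocyte-like cells. Values without cluster 4 are given below. Values without the cells with a Y-linked UMI are given only for Fth1 of the astrocyte-like cells and Tf of the Ttr and Gldn cells. A cell without such a UMI may still come from a male, so these values do not separate the sexes. The part of sex and of the other differences in the results was not tested.

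Fth1 (ENSRNOG00000022619) was the most abundant transcript of the astrocyte-like cells in both libraries. It took 4.71% of all their UMIs in WT (133593 UMIs, 47069 CPM) and 8.68% in Nuc1 (785290 UMIs, 86751 CPM). The same gene ranked 1st in the motile-cilia-like cells of both libraries, at 34538 CPM in WT and 52867 CPM in Nuc1. At the other end stood the oligodendrocyte-lineage-like cells, with 3218 CPM in WT and 2706 CPM in Nuc1, where Fth1 ranked 23rd and 31st. The astrocyte-like cells were therefore above every other group, and the oligodendrocyte-lineage-like cells below every other group, in each library and with intervals that did not overlap. With marker counts per cell in place of clusters this order did not hold, as the cells then called oligodendrocyte-lineage-like had the highest Nuc1 level (84620 CPM) and in WT the motile-cilia-like cells the highest (38279 CPM). These were other sets of cells, with 57 Nuc1 cells called oligodendrocyte-lineage-like and 58 WT cells called motile-cilia-like, beside 10 and 15 in the clusters. The former had Tf at 3183 CPM, beside 9.36 CPM in the Nuc1 cluster and 4651 CPM in Nuc1 astrocyte-like cells. The WT gap also nearly closed when cells over 300 CPM of collagen transcripts (called rich in fibroblast RNA) were left out of all groups but the collagen-rich. Fth1 was then at 45838.5 CPM in WT astrocyte-like (91 cells) and 45702.2 CPM in WT Ttr and Gldn cells (8 cells). In the main clustering, between the astrocyte-like and the oligodendrocyte-lineage-like cells, by the mean of both libraries, came the motile-cilia-like cells, the Ttr and Gldn cells (31177 CPM), the macrophage-like cells (30514 CPM) and then collagen-rich clusters 4, 0, 2, 1 and 5. In this order the motile-cilia-like cells could not be set apart in both libraries from the Ttr and Gldn cells, nor the latter from the macrophage-like cells, whereas each later step exceeded its counting intervals.

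**Figure D1:**
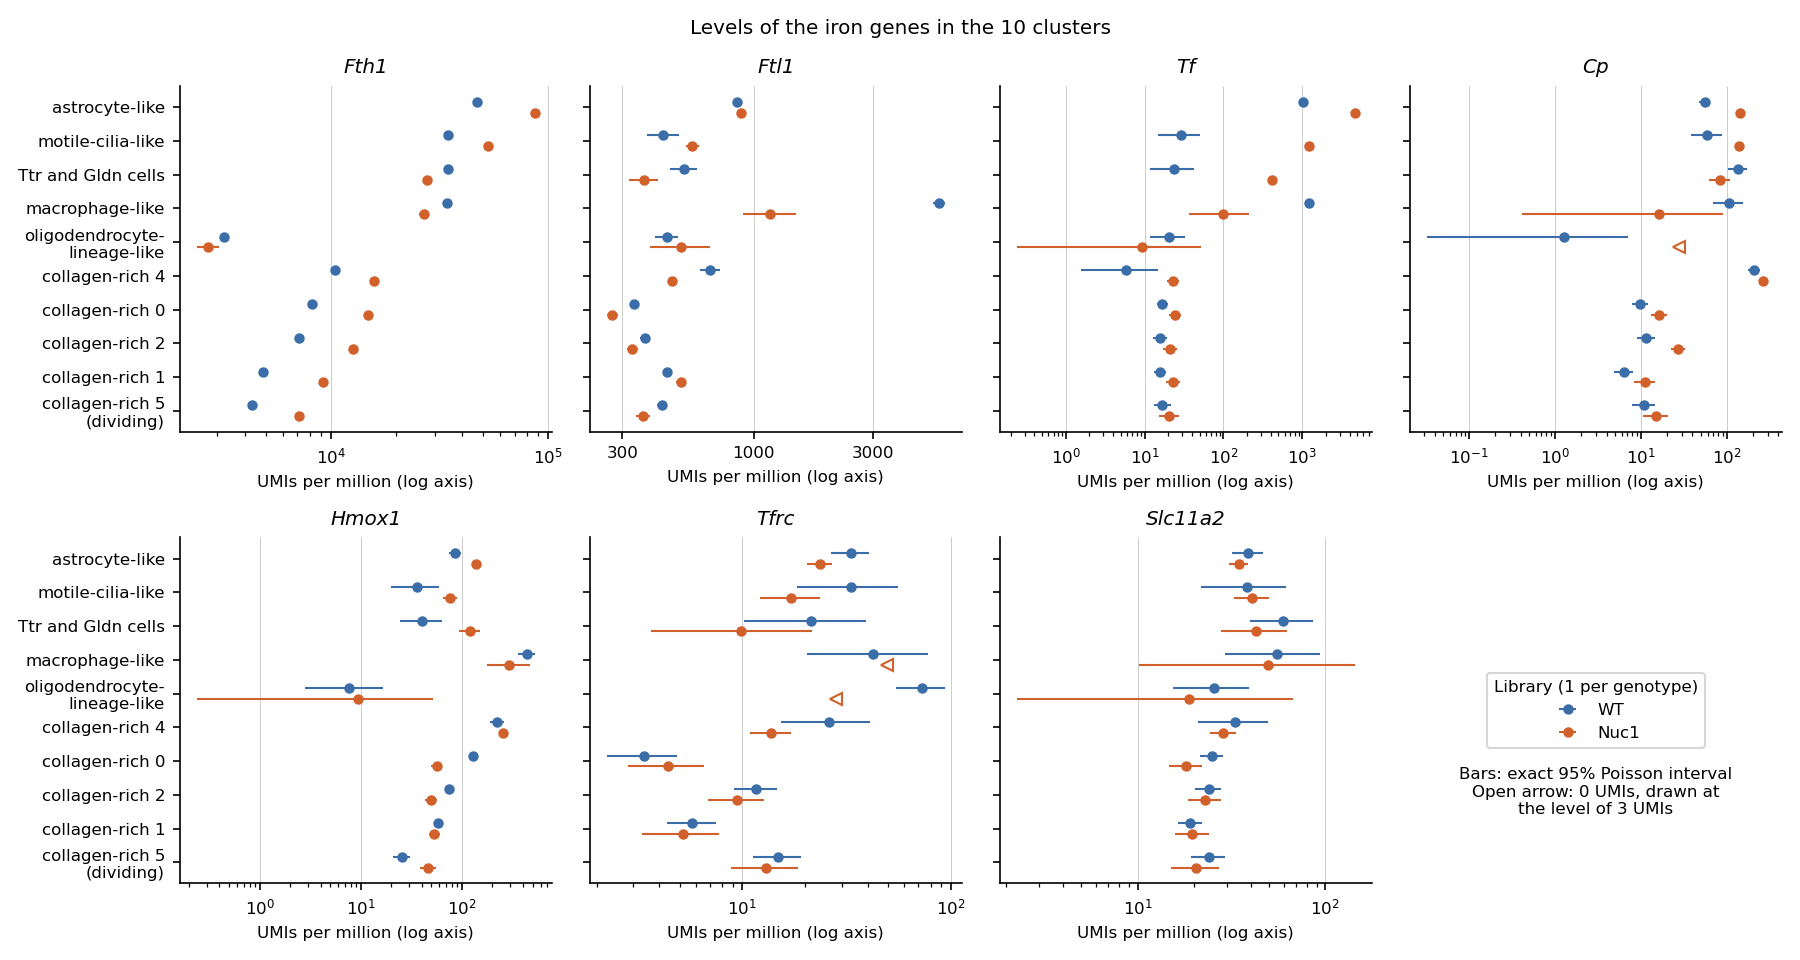
Levels of the 7 iron genes with UMIs (CPM, log axes) in the 10 clusters, WT in blue and Nuc1 in orange, with exact 95% Poisson intervals. Open arrows mark 0 UMIs, drawn at the level that 3 UMIs would give. Fth1 runs from 2706 CPM in Nuc1 oligodendrocyte-lineage-like cells to 86751 CPM in Nuc1 astrocyte-like cells, and Tf lies between 15.7 and 24.1 CPM in collagen-rich clusters 0, 1, 2 and 5 of both libraries.

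The level of Fth1 was higher in the Nuc1 library in 7 of the 10 clusters. Expressed as Nuc1 over WT, the log2 ratio reached 0.88 in the astrocyte-like cells (interval 0.87 to 0.89), a fold of 1.84. In the 5 collagen-rich clusters it lay between 0.60 in cluster 4 and 0.91 in cluster 1, from 4848 to 9140 CPM in the latter. A single Nuc1 cell gave 18.5% of the Fth1 UMIs of cluster 1, and without it the Nuc1 level there was 7540 CPM. The log2 ratio in the motile-cilia-like cells was 0.61 (0.59 to 0.64). A negative ratio was found in the Ttr and Gldn cells (34733 to 27620 CPM, log2 ratio -0.33), the macrophage-like cells (34298 to 26730 CPM, -0.36) and the oligodendrocyte-lineage-like cells (-0.25, interval -0.43 to -0.07). Of the Ttr and Gldn cells, 14 of 22 in WT and 15 of 30 in Nuc1 were rich in fibroblast RNA. Without these, Fth1 in that group was at 45702 CPM in WT and 21694 CPM in Nuc1. The macrophage-like value turned under other choices of cells, and was higher in Nuc1 with a minimum of 200 genes (32970 and 38610 CPM), with no doublets left out (34243 and 40146 CPM), with 3 median absolute deviations in place of doublet calls (35635 and 37781 CPM) and with the iron genes kept in the clustering (33632 and 40250 CPM). In the macrophage-like cells 1 Nuc1 cell held 50.4% of the Fth1 UMIs. Without the top cell of each library the levels there were 30682 CPM in WT and 17708 CPM in Nuc1. The oligodendrocyte-lineage-like value rested on single cells, since 1 WT cell held 33.6% of its Fth1 UMIs, and without the top cell of each library the levels were 2283 CPM in WT and 2935 CPM in Nuc1.

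The difference in the astrocyte-like cells was seen from the 10th percentile of cells (16558 CPM in WT and 27629 CPM in Nuc1) to the 90th (79882 and 151125 CPM). Per cell, Fth1 ran from 10483 CPM over a median of 39657 to 177103 CPM in WT, and from 6548 over 69811 to 413734 CPM in Nuc1. The ranges overlapped widely, and 286 of 353 Nuc1 cells (81.0%) lay above the WT median. Cells are not replicates, so this share describes these libraries. Nuc1 astrocyte-like cells with a Y-linked UMI were at 94290 CPM and those without at 83648 CPM, beside 47069 CPM in WT. Since a cell without such a UMI may still come from a male, the part of sex was not tested. Beside Gfap, the leading astrocyte marker, there were 6.91 (WT) and 9.07 (Nuc1) Fth1 UMIs per Gfap UMI in the astrocyte-like cells and 1164 and 426 in the collagen-rich cells. Gfap itself was at 5.46 CPM in WT and 29.6 CPM in Nuc1 collagen-rich cells, and its part in the Fth1 values there was not tested.

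Ftl1 (ENSRNOG00000020843), the light chain, had another pattern. It was highest in the macrophage-like cells of both libraries, at 5488 CPM in WT (1294 UMIs) and 1167 CPM in Nuc1 (71 UMIs), although in Nuc1 1 cell held 71.8% of those UMIs and the level without it was 439 CPM. The Nuc1 value was not apart from that of the astrocyte-like cells by its interval (912 to 1472 CPM). These followed with 861 CPM in WT and 895 CPM in Nuc1. In the collagen-rich clusters Ftl1 stood between 273 CPM (cluster 0, Nuc1) and 669 CPM (cluster 4, WT). Its log2 ratio in the astrocyte-like cells was 0.05, beside 0.88 for the heavy chain, and the interval (-0.01 to 0.12) included 0. With a mitochondrial limit of 10%, which left 29 WT and 178 Nuc1 cells, Ftl1 was at 650 CPM in WT and 1019 CPM in Nuc1, a log2 ratio of 0.65. In collagen-rich clusters 0, 2, 4 and 5 it was lower in Nuc1, by log2 ratios of -0.16 to -0.50, while Fth1 was higher in the same clusters. The number of Fth1 UMIs per Ftl1 UMI went from 54.6 in WT to 97.0 in Nuc1 astrocyte-like cells, and from 15.8 to 32.1 in the collagen-rich cells. It was lowest in the oligodendrocyte-lineage-like cells (7.15 and 5.25) and in WT macrophage-like cells (6.25). Counts of both ferritin genes are uncertain in level, because RefSeq names 6 further Fth1-like and 21 further Ftl1-like copies or pseudogenes in the rat, and reads that match several of these alike may not have been counted. Of these copies, 0 are listed by symbol in the count tables.

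Most Tf (ENSRNOG00000030625) transcripts came from the astrocyte-like cells, which held 78.3% of all Tf UMIs of the WT library and 92.6% of the Nuc1 library. Its level there was 1012 CPM in WT (2871 UMIs) and 4651 CPM in Nuc1 (42100 UMIs), which placed it 119th and 22nd among all genes. The log2 ratio was 2.20 (2.15 to 2.26), a fold of 4.60, and among 7637 genes that reached 100 UMIs there, 99.7% had a lower ratio. With a mitochondrial limit of 10%, which left 29 WT and 178 Nuc1 cells of this group, Tf was at 316 CPM in WT and 5175 CPM in Nuc1 (log2 ratio 4.03) and Fth1 at 30692 and 91781 CPM (1.58). Although Tf was left out of the clustering, it was the gene with the 4th highest fold over the other clusters in this group. One WT cell held 20.9% of the WT UMIs, and the WT level without it was 810 CPM.

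Tf also varied far more from cell to cell than Fth1. Among the WT cells of this group the median was 45.7 CPM and the highest cell 17029 CPM, and in Nuc1 the median was 786 CPM and the highest cell 79608 CPM. At least 1 Tf UMI was found in 57.4% of the astrocyte-like cells in WT and in 85.3% in Nuc1. After each cell was thinned to 10000 UMIs, which left out 2 WT and 22 Nuc1 cells, the shares were 46.2% (interval 36.5 to 56.2) and 79.5% (74.7 to 83.7). The same shares in collagen-rich cells were 14.97% in WT and 20.2% in Nuc1 after thinning. Median depths before thinning were 13721 and 15166 UMIs there, against 25874 and 24305 UMIs in the astrocyte-like cells. Tf UMIs per Gfap UMI were 2.92 in WT and 0.765 in Nuc1 collagen-rich cells, and 0.148 and 0.487 in the astrocyte-like cells. The part of free RNA in the Tf of the collagen-rich cells was not tested. Across the cells of a library, Fth1 and Tf were only weakly related (Pearson r of the log2 levels 0.22 over 108 WT cells and 0.31 over 353 Nuc1 cells). These r values are descriptions, since the cells share a library and its depth.

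**Figure D2:**
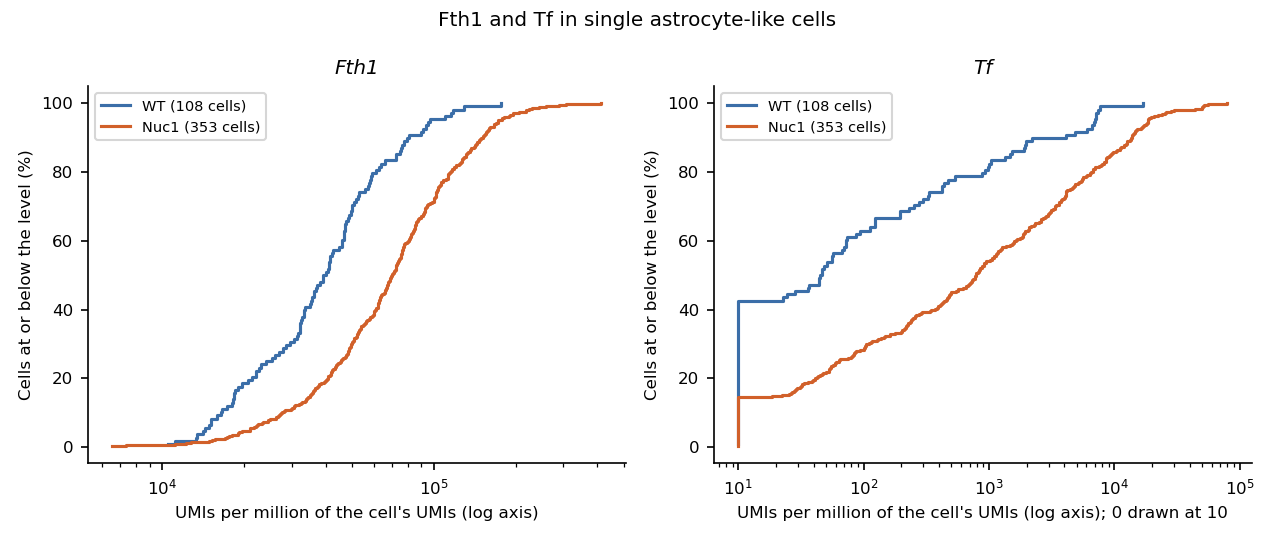
Cumulative share of astrocyte-like cells (percent) at or below a level of Fth1 or Tf (CPM of the cell, log axes; cells without a Tf UMI are drawn at 10). Nuc1 cells (353, orange) lie to the right of WT cells (108, blue) for both genes, with medians of 69811 and 39657 CPM for Fth1 and of 786 and 45.7 CPM for Tf.

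The oligodendrocyte-lineage-like cells, which showed Mbp, Olig1 and Cnp among their leading genes, had 16 Tf UMIs in WT (20.3 CPM, 11.6 to 33.0) and 1 in Nuc1. This level was within the range of the collagen-rich clusters, which lay between 5.76 and 24.1 CPM. Tf in the oligodendrocyte-lineage-like cells was thus not set apart from the collagen-rich level at this depth. After thinning, which left 37 WT cells, Tf was at 35.1 CPM and in 29.7% of these cells (interval 15.9 to 47.0), beside 14.97% (13.2 to 16.9) of the collagen-rich cells. Mobp and Ermn, genes of mature myelinating cells, had 0 UMIs in the cluster in both libraries. In the motile-cilia-like cells Tf was at 28.6 CPM in WT (12 UMIs) and 1210 CPM in Nuc1 (2605 UMIs), a log2 ratio of 5.40 (4.60 to 6.36). One Nuc1 cell gave 43.2% of the latter, and the level without it was 700 CPM. Gfap in the motile-cilia-like cells was at 1371 CPM in WT and 2273 CPM in Nuc1, and the part of astrocyte RNA in their Tf was not tested. Nuc1 Tf in this group was between 2149 and 2429 CPM with a minimum of 200 genes, with a limit of 3 median absolute deviations, without integration, at a resolution of 1 or with the iron genes kept in the clustering. Tf in the Ttr and Gldn cells (23.4 and 417 CPM) and in the macrophage-like cells (1234 and 98.6 CPM) depended in size on 1 cell each, which held 63.6% of the Nuc1 and 60.5% of the WT UMIs. Without the top cell of each library, Tf was at 15.7 CPM in WT and 161 CPM in Nuc1 Ttr and Gldn cells, and at 563 and 65.9 CPM in the macrophage-like cells. Without cells with a Y-linked UMI, Nuc1 Tf in the Ttr and Gldn cells was at 203 CPM. Gfap in the macrophage-like cells was at 589.5 CPM in WT (139 UMIs) and 65.8 CPM in Nuc1 (4 UMIs). Of these cells, 7 of 23 in WT and 14 of 21 in Nuc1 were rich in fibroblast RNA. The part of RNA from other cell types in their Tf was not tested. Erythroid transcripts were close to absent, with 2.11 CPM in WT and 0.773 CPM in Nuc1 astrocyte-like cells over 7 matched markers, and Hbb at 0 in both.

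Tfrc (ENSRNOG00000001766) was a low transcript throughout, with 419 UMIs over all WT cells and 456 over all Nuc1 cells. Its highest value was 72.5 CPM (57 UMIs) in WT oligodendrocyte-lineage-like cells, and the 10 Nuc1 cells of that cluster had 0 UMIs, which allows up to 28.1 CPM. Astrocyte-like Tfrc was at 33.1 CPM in WT and 23.5 CPM in Nuc1, a log2 ratio of -0.49 (-0.85 to -0.13). The ratio was -0.22 after thinning (32.1 and 27.5 CPM) and 0.076 with marker counts per cell in place of clusters, so its direction is not firm. Among the clusters with Tfrc UMIs in both libraries, the non-dividing clusters 0 and 1 had the lowest levels, between 3.35 and 5.73 CPM. The dividing cluster 5 was at 14.8 CPM in WT and 13.0 CPM in Nuc1. Tfrc was at 21.3 and 9.90 CPM in the Ttr and Gldn cells (10 and 6 UMIs), and at 42.4 CPM in WT macrophage-like cells (10 UMIs), where Nuc1 had 0 UMIs, which allows up to 49.3 CPM. Slc11a2 (ENSRNOG00000019550), which moves iron out of the endosome, was the most even of the members. It was highest in the macrophage-like cells (55.1 CPM in WT and 49.3 CPM in Nuc1, 13 and 3 UMIs) and the Ttr and Gldn cells (59.7 and 42.9 CPM), neither apart from its next lower neighbour, and at 38.8 and 34.6 CPM in the astrocyte-like cells and 22.8 and 22.2 CPM in the collagen-rich cells. Its interval included 0 in 9 of the 10 clusters, and in the astrocyte-like cells the log2 ratio was -0.16 (-0.48 to 0.16).

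Of the export genes, Slc40a1 (ENSRNOG00000049995) was listed at 0 UMIs over all barcodes, which allows up to 0.0869 CPM in WT and 0.0838 CPM in Nuc1. These limits are for counted UMIs and not for expression, because whether the gene model behind the counts covers the 3′ end of the transcript was not tested. Cp (ENSRNOG00000011913) had its highest level in collagen-rich cluster 4, at 209 CPM in WT (145 UMIs) and 266 CPM in Nuc1 (1514 UMIs). The order below it (Ttr and Gldn, motile-cilia-like, astrocyte-like, macrophage-like) could not be resolved. Astrocyte-like Cp was at 55.3 CPM in WT and 141 CPM in Nuc1, a log2 ratio of 1.35 (1.11 to 1.60). The motile-cilia-like cells gave almost the same values, 59.6 and 140 CPM, with a log2 ratio of 1.23 (0.64 to 1.88). The Ttr and Gldn cells went the other way, with 134 CPM in WT and 84.1 CPM in Nuc1 (log2 ratio -0.67, -1.24 to -0.12), and the macrophage-like cells had 106 CPM in WT (25 UMIs) and 16.4 CPM in Nuc1 (1 UMI). Without cells rich in fibroblast RNA, Cp in the Ttr and Gldn cells was at 209 CPM in WT and 85.7 CPM in Nuc1. With a mitochondrial limit of 10% astrocyte-like Cp was at 78.1 and 127 CPM, a log2 ratio of 0.70.

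Summed over all collagen-rich cells, Cp was at 13.9 CPM in WT and 79.9 CPM in Nuc1, a log2 ratio of 2.52. Cluster 4, whose share of cells differed between libraries, held 35.7% of the collagen-rich Cp UMIs in WT and 83.5% in Nuc1. Outside cluster 4 the levels were 9.18 and 17.6 CPM (log2 ratio 0.94, 0.70 to 1.19), and inside it the log2 ratio was 0.35 (0.10 to 0.61).

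Tf and Cp were the members with the highest ratios in the astrocyte-like cells. The 150 bases before the transcription start of both are shown because RefSeq holds them and they are the proximal promoters of these genes. Entries for Tf, Cp, Tfrc, Slc40a1 and Slc11a2 were matched by symbol. The start sites are those of RefSeq on the build GRCr8, and capitals mark exact matches on either strand to the TATA box (TATAAA) and the CCAAT box (CCAAT). The Tf window is chr8:112695377-112695526 on the minus strand and the Cp window is chr2:104368520-104368669 on the plus strand.
Tf: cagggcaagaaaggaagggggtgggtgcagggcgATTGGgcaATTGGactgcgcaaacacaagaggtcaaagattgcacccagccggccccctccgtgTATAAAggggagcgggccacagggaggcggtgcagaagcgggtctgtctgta
Cp: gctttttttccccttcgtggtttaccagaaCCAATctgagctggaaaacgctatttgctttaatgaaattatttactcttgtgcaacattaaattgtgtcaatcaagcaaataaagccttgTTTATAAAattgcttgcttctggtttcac
Tf has TATAAA starting 52 bases before the start and 2 CCAAT matches on the opposite strand. Cp has TATAAA 27 bases before the start, where a second match on the opposite strand overlaps it, and 1 CCAAT match. The searched 250 bases of Tfrc, Slc40a1 and both Slc11a2 entries held no TATAAA. Of 33469 promoters of the same length, 12.9% held TATAAA and 34.0% held CCAAT. A match is a description of the sequence and not of a bound site.

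Hmox1 (ENSRNOG00000014117) was highest in the macrophage-like cells (437 CPM in WT, 103 UMIs, and 296 CPM in Nuc1, 18 UMIs of which 1 cell gave 94.4%) and in collagen-rich cluster 4 (223 and 258 CPM). It was near 0 in the oligodendrocyte-lineage-like cells, with 6 and 1 UMIs. Its astrocyte-like level was 85.6 CPM in WT and 137 CPM in Nuc1, a log2 ratio of 0.68 (0.48 to 0.88). With a mitochondrial limit of 10% the levels were 53.0 and 156 CPM, a log2 ratio of 1.56. The collagen-rich clusters went in both directions: cluster 0 had 129 CPM in WT and 56.1 CPM in Nuc1 (log2 ratio -1.20, -1.39 to -1.02), cluster 2 had 74.5 and 49.4 CPM, and the dividing cluster 5 had 25.4 and 46.4 CPM. Over all collagen-rich cells the log2 ratio was 0.34 (0.26 to 0.43), but without cluster 4 it was -0.59 (-0.70 to -0.47).

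Other stress genes were read beside Hmox1. The dissociation-response list had 12 of its 14 genes matched, and 10 of the 12 were lower in Nuc1 astrocyte-like cells, among them Fos (1002 and 405 CPM) and Atf3 (190 and 69.7 CPM), while Hmox1 was higher. By at least 1.5-fold 9 of the 12 were lower, beside 12.1% of all genes in these cells. In cluster 0, where Hmox1 was lower in Nuc1, 9 of 12 were lower by that fold, beside 10.6% of all genes, with Atf3 at 168 and 35.7 CPM. Of 9 listed targets of Nfe2l2, the transcription factor known to drive Hmox1 under oxidative stress, 7 had at least 100 UMIs in the astrocyte-like cells. Their median log2 ratio was -0.06, beside -0.11 over all genes, and 0 of them reached a 1.5-fold difference, which is near the 5.88% higher and 12.1% lower of all genes. Nqo1 was at 236 and 318 CPM and Gclc at 95.8 and 71.4 CPM. In cluster 0, 4 of 6 such targets were lower in Nuc1, with a median log2 ratio of -0.38, beside -0.02 over all genes, and 2 of them by at least 1.5-fold, Gclc (147 and 89.5 CPM) and Me1 (165 and 94.8 CPM). In cluster 4 all 7 such targets were lower (median -0.44, beside 0.05 over all genes), where Hmox1 was at 223 and 258 CPM. The part of dissociation stress in the Hmox1 values was not tested.

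**Figure D3:**
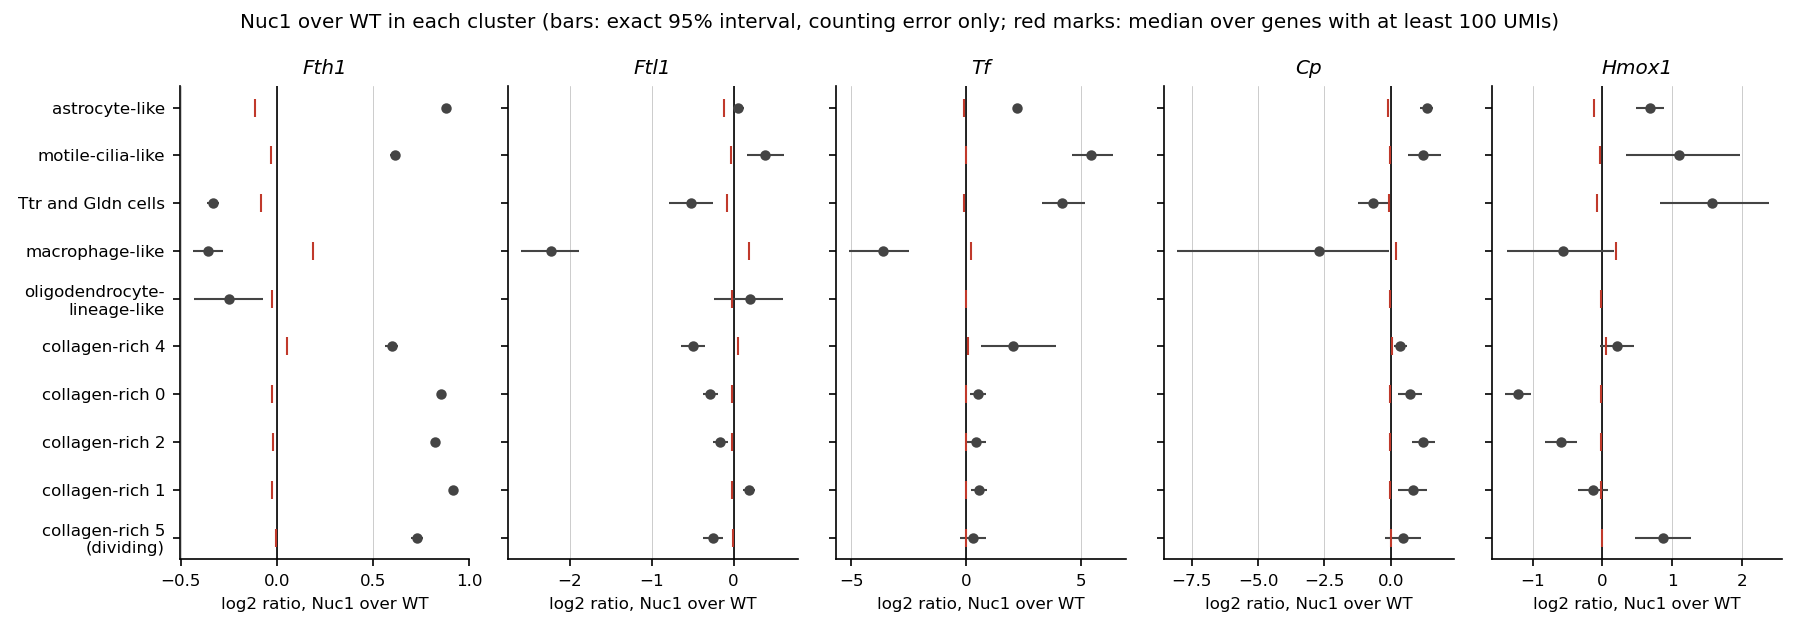
Log2 ratio of Nuc1 over WT for 5 iron genes in each of the 10 clusters (clusters with at least 20 UMIs of the gene in both libraries together), with exact 95% intervals that cover counting error only. Red marks give the median over genes with at least 100 UMIs. Fth1 is at 0.60 to 0.91 in the astrocyte-like, motile-cilia-like and all 5 collagen-rich clusters, Ftl1 is not, and Hmox1 ranges from -1.20 in cluster 0 to 1.57 in the Ttr and Gldn cells.

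Counted over the members with at least 20 UMIs, 7 genes could be compared in the astrocyte-like cells, of which 4 (Fth1, Tf, Cp and Hmox1) were at least 1.5-fold higher in Nuc1 and 0 at least 1.5-fold lower. Among all 7637 genes with at least 100 UMIs there, 5.88% were higher and 12.1% lower by that fold. The median log2 ratio of the members was 0.68, beside -0.11 over all genes. As the members were selected on these data, the count is no evidence for a common change. In the collagen-rich cells together, 2 of 7 members (Fth1 and Cp) were higher by at least 1.5-fold and 0 lower, with 9.25% and 8.68% of 10341 genes as the background, and the median over the members was 0.34, beside 0.02 over all genes. Without cluster 4 the median over the members was -0.08.

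The wider list of iron genes held 53 further genes, of which 50 were matched by a unique symbol. Among astrocyte-like cells, 25 of them had at least 100 UMIs, and 3 were at least 1.5-fold higher in Nuc1, 0 at least 1.5-fold lower and 22 in between, with a median log2 ratio of 0.07, beside 5.88% higher and 12.1% lower and a median of -0.11 over all genes. The 3 highest were Slc39a8, a zinc, manganese and iron importer (4.58 and 9.94 CPM, log2 ratio 1.12, 0.27 to 2.08), Hmox2, the constitutive haem oxygenase (36.6 and 62.1 CPM, 0.76), and Blvrb, a biliverdin reductase (60.2 and 91.6 CPM, 0.60). Of the genes of haem breakdown, Blvra was between the limits (24.7 and 20.7 CPM). The 3 lowest were Aco1, which encodes the iron-sensing protein IRP1 (45.5 and 30.7 CPM, -0.57), Pcbp2, an iron chaperone (63.4 and 44.6 CPM, -0.51), and Hscb, a co-chaperone of iron-sulfur cluster transfer (40.9 and 29.5 CPM, -0.47). None of the 9 measured genes of mitochondrial iron and iron-sulfur assembly reached a 1.5-fold difference, a count that so few genes and these background shares do not set apart.

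In the collagen-rich cells 37 of the 50 genes had at least 100 UMIs, of which 6 were at least 1.5-fold higher and 3 lower in Nuc1, beside 9.25% and 8.68% of all genes. Uptake and reduction was the role with most of these, as Lcn2 (a siderophore-binding protein, 1.41 and 4.10 CPM) and the STEAP metalloreductases Steap2 (8.31 and 19.0 CPM) and Steap4 (4.77 and 10.8 CPM) had the highest ratios. Steap3, the main endosomal ferrireductase of erythroid cells (3.98 and 1.37 CPM), Scara5, a receptor for ferritin (125 and 74.0 CPM), and Slc39a14, an importer of non-transferrin iron (25.7 and 15.7 CPM), had the lowest. Here too the number of cluster 4 cells entered: without cluster 4, Steap4 was at 4.15 and 4.41 CPM, and 3 of 36 genes were higher and 2 lower by 1.5-fold, beside 6.65% and 9.23% of all genes. The counts outside cluster 4, and that of lower genes in all collagen-rich cells, were close to those shares. Lcn2, Steap3 and Scara5 kept a 1.5-fold difference without cluster 4, with log2 ratios of 1.68, -1.31 and -1.19. Slc39a14 (-0.47), Steap2 (0.56) and Heph (0.23, against 1.03 with cluster 4) did not.

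**Figure D4:**
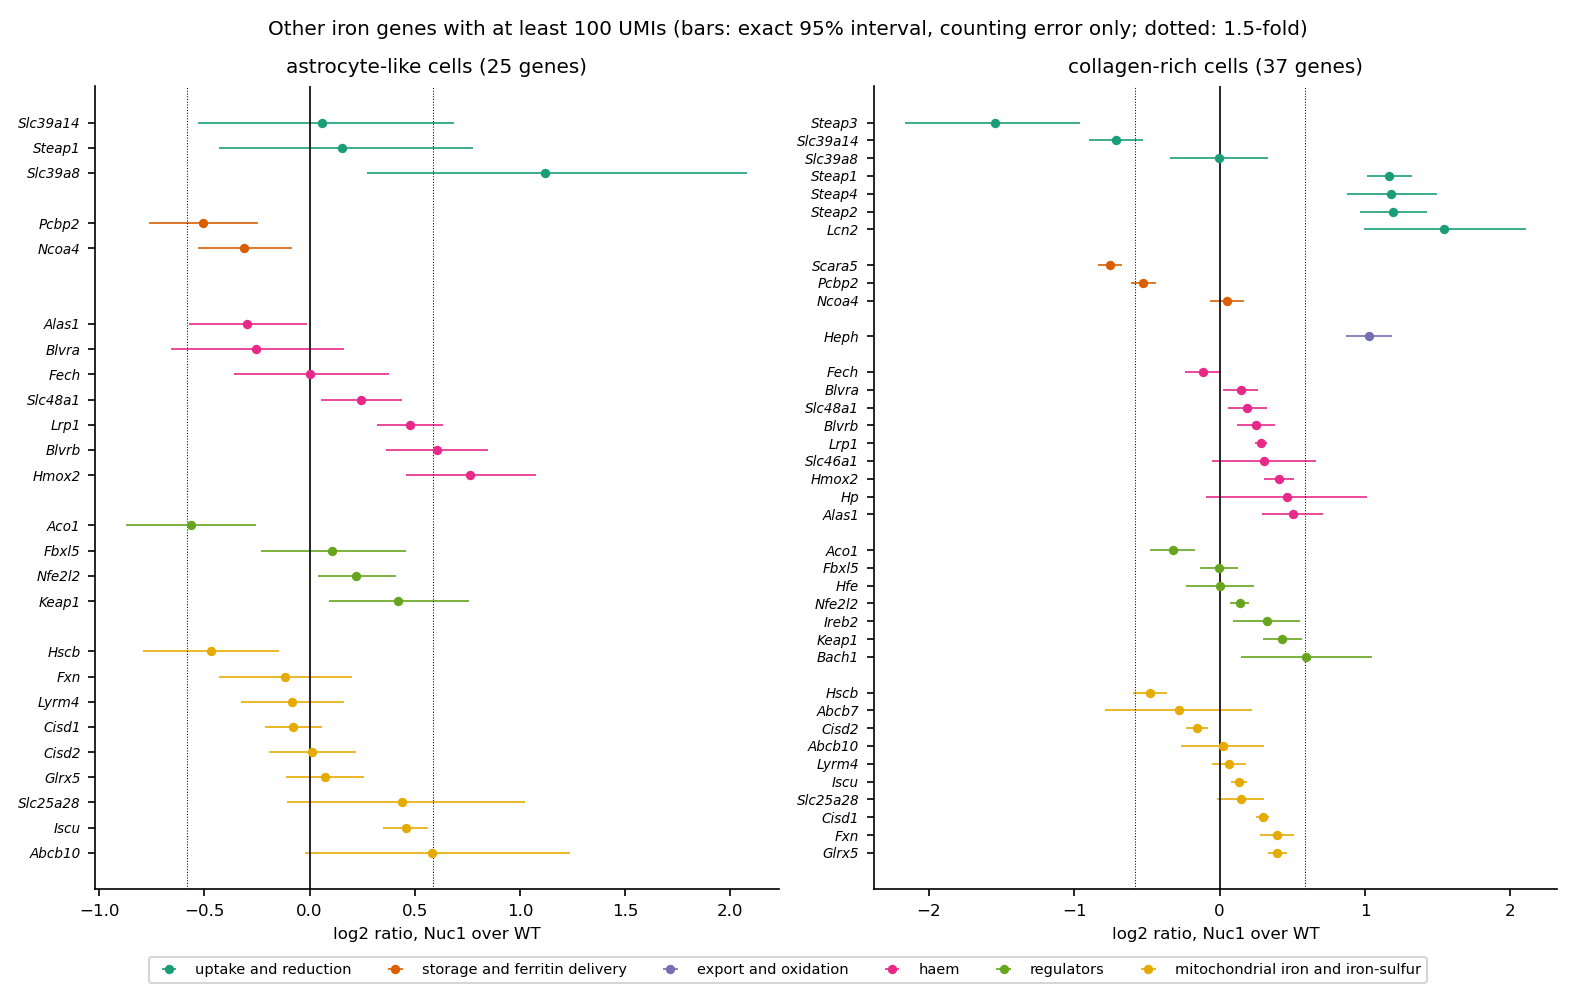
Log2 ratio of Nuc1 over WT (with exact 95% intervals, counting error only) of the other iron genes with at least 100 UMIs, by role, in astrocyte-like cells (25 genes) and collagen-rich cells (37 genes); dotted lines mark a 1.5-fold difference. In the astrocyte-like cells 22 of 25 genes lie between the dotted lines, and in the collagen-rich cells the genes of uptake and reduction lie on both sides.

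Levels of the other iron genes were also compared between groups, as the fold over the mean of the other groups. Scara5 was 12.3-fold higher in the collagen-rich cells than the mean of the other groups, and Heph, a membrane relative of ceruloplasmin, 8.62-fold higher (17.8 and 36.2 CPM). Hfe, the haemochromatosis protein, followed at 4.198-fold. In the motile-cilia-like cells Steap1 (3.599-fold), Hscb (3.23-fold) and Iscu, the scaffold of iron-sulfur assembly (2.67-fold), stood highest. Folds were smaller in the astrocyte-like cells, with Slc39a14 (1.61-fold), Alas1, the first enzyme of haem synthesis (1.57-fold), and the haem transporter Slc48a1 (1.497-fold). Slc39a14 was nevertheless lower there (10.9 CPM in WT and 11.4 CPM in Nuc1) than in the collagen-rich cells (25.7 and 15.7 CPM). In the Ttr and Gldn cells the highest were Lrp1, which takes up haem bound to haemopexin (1.45-fold), Slc48a1 (1.40-fold) and Nfe2l2 (1.30-fold), and in the oligodendrocyte-lineage-like cells Cisd2 (2.24-fold), Glrx5 (1.32-fold) and Cisd1 (1.21-fold). Lrp1 was higher in the collagen-rich cells (346 and 421 CPM) than in the Ttr and Gldn cells (269 and 320 CPM), so a fold over this mean does not mark a gene of 1 group. No listed gene reached 100 UMIs in the macrophage-like cells.

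Across 18 sums of a cluster in a library, each with at least 20 cells, the genes whose log2 levels ran most like those of each member were taken from 9500 genes. For Fth1 they were Grina, Lgals3 and Pink1 (Pearson r 0.95, 0.94 and 0.94). Ftl1 ran most like Lamtor1 (0.93), Csf2ra (0.88) and P2rx4 (0.88), and Tf most like the amino acid transporter gene Slc7a8 (0.94), Baalc (0.92) and Pc, the pyruvate carboxylase gene (0.91). Tfrc was nearest to Dennd5a (0.90), Sv2a (0.90) and Ccdc124 (0.89), and Slc11a2 to Pltp (0.90), Por (0.90) and Ctsc (0.89). For Cp the nearest were Aplp2 (0.91), Cyp27a1 (0.91) and Cbx7 (0.84), and for Hmox1 Sqstm1, Ctsh and Glmp (0.87, 0.86 and 0.86). The sums share 2 libraries and differ in depth, so these values describe likeness only.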

How the data were processed

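The authors prepared droplet-based 3′ libraries, ran Cell Ranger 3.1.0 with STAR 2.7, and deposited raw UMI counts per gene and barcode. The genome build is not given in the sources used here. Barcodes needed 500 genes or more and a mitochondrial share (13 genes) of 20% or less, and Scrublet (scanpy 1.11.5, expected rate 2%) removed 5 WT and 11 Nuc1 doublets (0.254% and 0.613%), so doublets may remain. The libraries were integrated in Seurat 5.3.0 (R 4.3.3) on 2000 variable genes without the iron genes, with 30 components and a resolution of 0.5. A cluster was named from at least 3 listed markers among its 10 leading genes (fold over the mean of other clusters, 20 CPM added).

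UMIs were summed per group and library and given as CPM. Intervals are exact (Poisson for levels, conditional binomial for ratios, Clopper-Pearson for shares) at 95%. Genes with 0 UMIs are given the level that 3 UMIs would have. PCR duplicates were collapsed by the authors' UMI counting. No count model was fitted, since each genotype has 1 library. Calculations were tested on simulated data.

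Members and lists were chosen with earlier results of these data known. All members are described. Of the other iron genes, the 3 highest and 3 lowest ratios (at least 100 UMIs) and the 3 highest levels over other groups are named. The 3 most similar genes exclude mitochondrial, ribosomal protein and unnamed genes.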

Additional observations from a re-analysis of the deposited data

Results flagged for a closer look

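For 5 members there were ratios of Nuc1 over WT in opposite directions in 2 clusters, with both counting intervals away from 0, and these differences between clusters were not tested. For Fth1 the log2 ratio was 0.91 in collagen-rich cluster 1 and -0.36 in the macrophage-like cells, where the direction turned under other cell filters (32970 CPM in WT and 38610 CPM in Nuc1 with a minimum of 200 genes). Ftl1 stood at 0.39 in the motile-cilia-like cells and at -2.23 in the macrophage-like cells. For Tf the values were 5.40 in the motile-cilia-like cells and -3.65 in the macrophage-like cells, and for Cp 1.35 in the astrocyte-like cells and -2.69 in the macrophage-like cells, the last resting on 1 Nuc1 UMI (interval -8.05 to -0.08). With a minimum of 200 genes the macrophage-like levels were 1164 CPM in WT and 597 CPM in Nuc1 for Tf, and 99.7 and 35.1 CPM for Cp, so both differences were smaller. Hmox1 was at 1.57 in the Ttr and Gldn cells, where 1 Nuc1 cell held 47.9% of its UMIs and the levels were 40.5 CPM in WT and 60.1 CPM in Nuc1 with a minimum of 200 genes, and at -1.20 in collagen-rich cluster 0. The macrophage-like side of 4 of these pairs rests on 21 Nuc1 cells with 60831 UMIs in all.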

How the results depend on the processing

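No paired analysis was possible because WT and Nuc1 are represented by 1 library each. In the astrocyte-like cells the log2 ratios of Fth1 (0.81 to 1.58), Tf (2.06 to 4.03), Cp (0.70 to 2.45) and Hmox1 (0.46 to 1.56) were above 0 under all 17 alternatives, 3 of which (leaving out cells with a Y-linked UMI, Fth1 from the sum of UMIs, or cluster 4) were chosen after seeing the data; leaving out cluster 4 could not change astrocyte-like values, and leaving out Fth1 could only raise them. Depth limits Tfrc, Slc11a2 and the groups under 100 cells.

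Highest groups are counted here over the 6 named groups, with the collagen-rich cells together. With marker counts in place of clusters, 2534 cells were called astrocyte-like, and 4 of the 7 members with UMIs kept their highest group. Fth1 (33405 CPM in WT and 84620 CPM in Nuc1) and Tf (765 and 3183 CPM) became highest by the mean of both libraries in the oligodendrocyte-lineage-like cells. That call then held 99 WT and 57 Nuc1 cells, beside 52 and 10 in the cluster, and so took in cells of other clusters. Cp became highest in the motile-cilia-like cells. It had been highest in the Ttr and Gldn cells, which marker counts did not call, so Cp could not keep its group. The median log2 ratio over the members was 0.46 in astrocyte-like, 0.44 in collagen-rich, 1.28 in oligodendrocyte-lineage-like and 0.16 in macrophage-like cells, with Hmox1 at -0.083 in collagen-rich and Tfrc at 0.076 in astrocyte-like cells. A mitochondrial limit of 10% left 207 astrocyte-like cells (29 WT), gave the highest Fth1, Tf and Hmox1 and the lowest Cp values of the ranges above, and gave a collagen-rich median of 0.55. Under that limit no cluster was called motile-cilia-like or Ttr and Gldn. Merging without integration gave 0.086 for that median and -0.062 for Tf in collagen-rich cells. Without cluster 4 the collagen-rich median was -0.084 and Hmox1 -0.59. Scaling by the trimmed mean of M values gave medians of -2.70 (macrophage-like) and -0.48 (oligodendrocyte-lineage-like). Thinning gave 0.30 (Ttr and Gldn) and -0.030 (macrophage-like, where it left 10 WT cells and 1 Nuc1 cell), and kept the highest group of 4 members. A resolution of 0.2 kept that of 3, but it left no motile-cilia-like, macrophage-like or oligodendrocyte-lineage-like group. Members highest in a lost group could not keep it. The astrocyte-like group then held 123 WT and 462 Nuc1 cells. Leaving out cells rich in fibroblast RNA gave -0.69 in the Ttr and Gldn cells. The cause of the other shifts was not tested.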
